A study of Mus musculus with 6 samples.

Results

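The genes described here carry phosphate across the membranes of kidney cells, or belong to the Klotho and scaffold proteins that act on that transport. They were chosen by name: the sodium-phosphate cotransporters Slc34a1, Slc34a3, Slc20a1 and Slc20a2, the phosphate exporter Xpr1, the FGF23 co-receptor Kl (Klotho) with the receptor Fgfr1, and the scaffolds Pdzk1 and Slc9a3r1 (also written Nherf1). All 9 were found by symbol among 55401 Ensembl genes, and all 9 were among the 19717 genes that passed the low-count filter. The RNA came from isolated mouse glomeruli, in 3 libraries labelled DKD and 3 labelled Control. The series' title gives DKD as diabetic kidney disease. The labels give these words under genotype and tissue only; how disease was induced, the strain, the age and whether each library is its own animal are not stated in them. The p-values therefore measure the spread between these libraries.

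Totals ran from 71154026 to 75328417 counts in DKD libraries and from 72451052 to 83576494 counts in Control libraries. Control replicate 3 lay away from the other two Control libraries on both leading principal components of log CPM, at 46.8 on the second (26.5% of the variance), against −59.4 and −60.0 for Control replicates 1 and 2. On the first component (39.8%) Control replicate 3 was at 101, against 18 and 15. DKD replicate 3 also lay apart on the first, at −79.7 against −27.1 and −27.5 for DKD replicates 1 and 2. DKD replicate 1 lay apart on the second, at 53.5 against 4.02 and 15.1 for DKD replicates 2 and 3. Beside the results that Control replicate 3 moves most, values without it are given too. Markers of the podocyte, the epithelial cell of the glomerulus, were present in every library but held between 0.0744% and 0.0884% of counts in DKD and between 0.0853% and 0.142% in Control. Those of the proximal tubule, which lies downstream of the glomerulus, made up between 2.81% and 3.94% in DKD and between 3.81% and 6.35% in Control. Mitochondrially encoded genes made up between 15.3% and 18.7% of counts in DKD and between 10.6% and 12.2% in Control; without them Slc34a3, described below, kept an adjusted p of 0.0231. The 4 Y-linked transcripts examined were present in all 6 libraries, and Xist had between 0 and 16 counts.

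Phosphate that is filtered at the glomerulus is taken back mainly in the proximal tubule. The type II cotransporters Slc34a1 and Slc34a3 lie in the brush border there and use the sodium gradient to bring phosphate into the cell. The type III cotransporters Slc20a1 and Slc20a2 are made in most cell types, and Xpr1 is the known phosphate exporter of animal cells. The bone hormone FGF23 binds an FGF receptor together with Klotho, and parathyroid hormone acts through its own receptor; both lead to removal of type II cotransporters from the brush border. Slc9a3r1 and Pdzk1 are PDZ-domain proteins that hold Slc34a1 there. The glomerulus itself is not a site of this reabsorption.

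The sequences before the start sites of 3 cotransporters are shown because Slc34a1 and Slc34a3 had lower values in DKD libraries and Slc20a1 had higher ones. Each is the 250 bases before the annotated start in RefSeq on build GRCm38.p6, which precedes the build GRCm39 named for the counts. They are printed in the direction of the gene. Slc34a1 is on chromosome 13 (chr13:55399398-55399647, plus strand). Slc34a3 is on chromosome 2 (chr2:25234235-25234484, minus strand). Slc20a1 is on chromosome 2 too (chr2:129198523-129198772, plus strand, the first of its 2 windows). Capitals mark matches on either strand to GTTAAT (half-site of the factor HNF1), AGGTCA (half-site of nuclear receptors), CACGTG (E-box) or TATAAA, a core promoter element.
Slc34a1: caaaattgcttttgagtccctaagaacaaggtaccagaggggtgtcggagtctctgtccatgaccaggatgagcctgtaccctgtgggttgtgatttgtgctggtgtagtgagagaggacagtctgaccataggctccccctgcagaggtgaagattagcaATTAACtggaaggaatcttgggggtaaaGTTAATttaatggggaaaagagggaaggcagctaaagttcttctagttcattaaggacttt
Slc34a3: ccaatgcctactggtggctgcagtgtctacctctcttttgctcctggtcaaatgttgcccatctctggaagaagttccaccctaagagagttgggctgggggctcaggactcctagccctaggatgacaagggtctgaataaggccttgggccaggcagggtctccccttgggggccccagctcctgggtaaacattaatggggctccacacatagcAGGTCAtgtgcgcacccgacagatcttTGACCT
Slc20a1: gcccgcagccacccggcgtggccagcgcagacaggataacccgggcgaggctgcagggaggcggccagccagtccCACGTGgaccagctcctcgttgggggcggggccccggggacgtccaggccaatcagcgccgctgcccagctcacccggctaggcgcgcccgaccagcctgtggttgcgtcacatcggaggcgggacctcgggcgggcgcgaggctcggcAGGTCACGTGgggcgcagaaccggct

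The Slc34a1 window held GTTAAT at 89 and 61 bases before the start (first base of each match), letters found in 6.43% of all 32851 windows of this length. The Slc34a3 window held AGGTCA at 33 and 6 bases before the start, found in 14.0% of windows. The Slc20a1 window held CACGTG at 175 and 22 bases before the start, found in 6.02% of windows, and the match nearer the start overlaps an AGGTCA match at 26. TATAAA, present in 12.4% of windows, was in none of these 3. The Slc20a1 window had 29 CpG pairs and a GC content of 75.2%. The Slc34a1 window had 1 CpG pair (46.4% GC) and the Slc34a3 window 2 (56.4% GC), against medians of 6 CpG pairs and 52.4% GC over all windows. The motifs were chosen with these sequences in view, and the matches describe letters only. Windows were found for 7 of the 9 genes, not for Slc20a2 and Fgfr1. Of those 7 genes only the 3 above are shown.

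Between DKD and Control libraries 1 of the 9 genes changed: Slc34a3 fell in DKD. The other 8 did not pass the threshold, an adjusted p under 0.05 in edgeR's quasi-likelihood test over all genes. By that rule 1.16% of all genes tested were called (228 of 19717; 0.725% higher and 0.431% lower in DKD). Scaled by library totals alone, 101 genes were called higher and 174 lower, against 143 higher and 85 lower here. For 7 of the 9 genes (2 higher and 5 lower in DKD) no DKD library fell within the Control range, against 30.7% of all genes tested (15.5% higher, 15.2% lower). Before adjustment, p was under 0.05 for 5 of the 9 (1 higher, 4 lower), against 22.6% of all genes (11.8% higher, 10.9% lower). Slc34a3 alone of the 9 was also called with RLE factors (1.13% of all genes called), upper quartile factors (1.22%), library totals (1.39%), robust dispersion (1.13%), no mitochondrial genes (1.1%), the length trend removed (0.872%), limma-voom (1.03%), no filter (0.182%) and the tubule score as covariate (0.431%). DESeq2 called Slc34a3, Slc34a1, Slc20a1, Slc20a2 and Xpr1, where it called 13.7% of all genes. The median log2 fold change of the 9 genes was −0.59, against 0.003 over all genes. No sign among the 9 changed with the scaling of the libraries (3 other scalings).

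**Figure D1:**
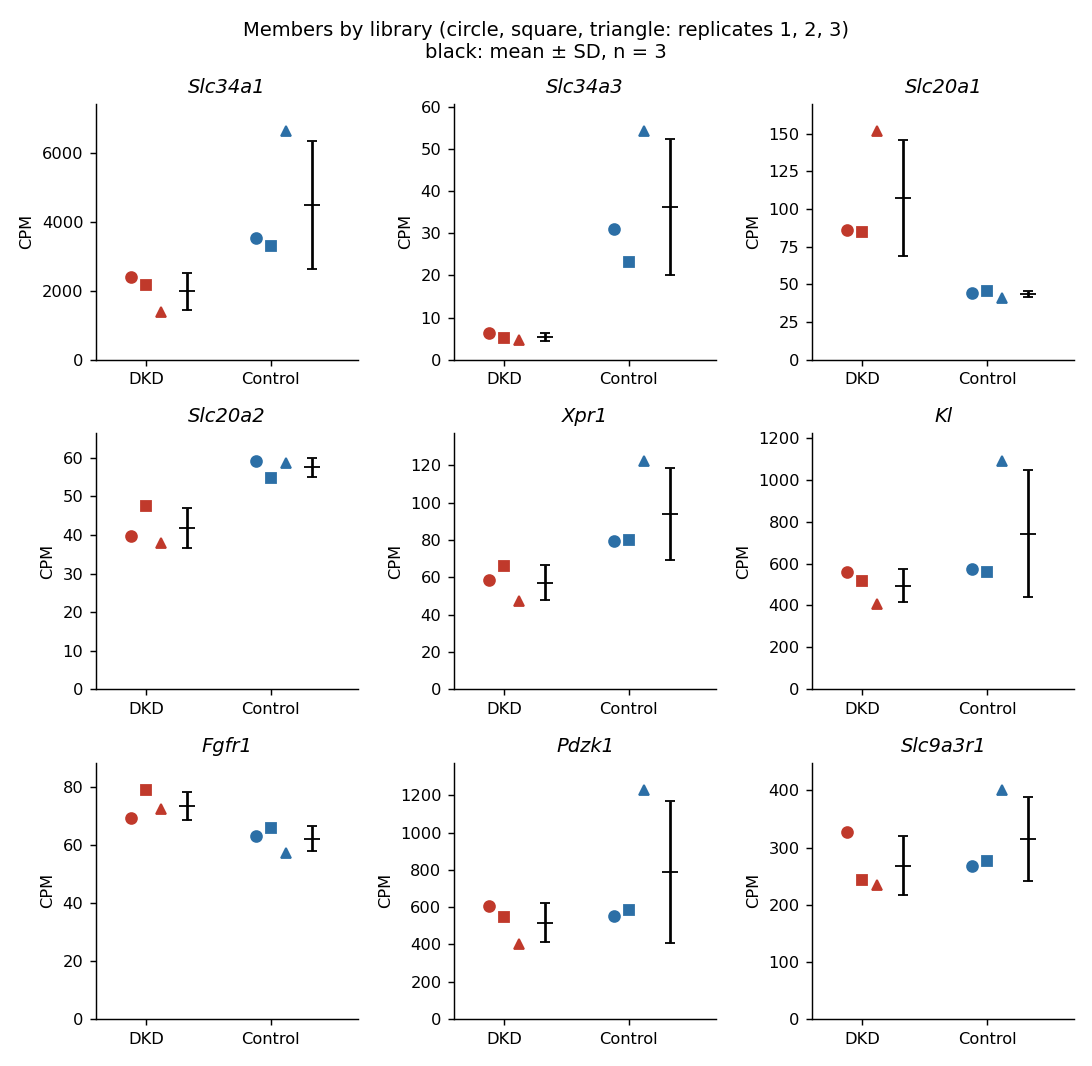
CPM (vertical axes from 0) of the 9 genes in each library, with DKD in red on the left and Control in blue on the right; black bars are mean ± SD (n = 3 each). The 3 DKD libraries lie below all Control libraries for Slc34a1, Slc34a3, Slc20a2, Xpr1 and, by under 1 CPM, Kl, and above them for Slc20a1 and Fgfr1.

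Slc34a3, the type IIc cotransporter (ENSMUSG00000006469), was measured at 6.44, 5.19 and 4.63 CPM in DKD replicates 1 to 3 and at 31.1, 23.3 and 54.2 CPM in Control replicates 1 to 3. CPM are counts relative to a library size scaled with TMM factors. Every DKD library lay far below every Control library, and the spread was wide in Control alone. The means were 5.42 ± 0.927 CPM in DKD and 36.2 ± 16.1 CPM in Control (SD, n = 3 each), a log2 fold change of −2.74 ± 0.33 (SE) or 6.68-fold lower in DKD (adjusted p 0.0233). Without Control replicate 3, its highest library, it was −2.33 with an adjusted p of 0.0163. Without DKD replicates 1, 2 or 3 or Control replicate 1 the adjusted p was 0.104, 0.0501, 0.0938 and 0.0937, with log2 fold changes from −2.88 to −2.64. Of all genes 0.0195%, 1.46%, 0.0491% and 0.00493% were called in those 4 fits, 0.0639% without Control replicate 2 and 1.88% without Control replicate 3. In bulk RNA, fewer cells of a type and less RNA per cell cannot be told apart, here and for the genes below.

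Slc34a1, the type IIa cotransporter and the main phosphate transporter of the brush border in mice (ENSMUSG00000021490), was measured at 2411, 2175 and 1376 CPM in DKD replicates 1 to 3. In Control replicates 1 to 3 it was at 3543, 3309 and 6637 CPM. The groups did not overlap, and Control replicate 3 was 1.94 times the mean of the other two Control libraries. The log2 fold change was −1.18 ± 0.36 (SE), from means of 1987 ± 542 CPM in DKD and 4496 ± 1857 CPM in Control (SD, n = 3 each). With an adjusted p of 0.121 it did not pass. Without Control replicate 3 the log2 fold change was −0.79, with an adjusted p of 0.121 again.

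The type III cotransporters had differences of opposite sign, neither past the threshold. Slc20a1 (ENSMUSG00000027397) was measured at 86.0, 84.6 and 152 CPM in DKD replicates 1 to 3 and at 44.1, 45.5 and 41.1 CPM in Control replicates 1 to 3. All DKD libraries lay above all Control libraries, DKD replicate 3 highest, and the Control libraries were close together. The log2 fold change was 1.30 ± 0.24 (SE), 2.47-fold higher in DKD, with an adjusted p of 0.0555, which misses the threshold. With a filter of at least 1 CPM in 3 libraries, which tests fewer genes and calls 3.43% of them, the adjusted p was 0.0450. Without DKD replicate 3 the log2 fold change was 0.97 (adjusted p 0.0666). Slc20a2 (ENSMUSG00000037656) was at 39.8, 47.6 and 37.9 CPM in DKD and at 59.2, 54.7 and 58.7 CPM in Control, in the same order of replicates. The groups did not overlap and the spread within them was small (log2 fold change −0.46 ± 0.12, SE, adjusted p 0.0898).

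Xpr1, the exporter (ENSMUSG00000026469), was measured at 58.5, 65.9 and 47.4 CPM in DKD replicates 1 to 3. In Control replicates 1 to 3 it was at 79.5, 80.0 and 123 CPM. The groups did not overlap, and Control replicate 3 was the highest library. Its log2 fold change was −0.72 ± 0.21 (SE, adjusted p 0.113), and −0.48 (adjusted p 0.127) without Control replicate 3.

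Kl (ENSMUSG00000058488), which is expressed in the proximal and distal tubule, was measured at 559, 516 and 406 CPM in DKD replicates 1 to 3. In Control replicates 1 to 3 it was at 575, 560 and 1090 CPM. The highest DKD library and the lowest Control library were nearly equal, and Control replicate 3 was 1.92 times the mean of the other two Control libraries. The log2 fold change was −0.59 ± 0.29 (SE, adjusted p 0.281) with all libraries and −0.20 (adjusted p 0.492) without Control replicate 3. Fgfr1 (ENSMUSG00000031565), a receptor that binds FGF23 together with Klotho, was at 69.5, 78.9 and 72.4 CPM in DKD and at 63.0, 65.9 and 57.4 CPM in Control. Its DKD libraries all lay above its Control libraries by a small margin, with a log2 fold change of 0.24 ± 0.11 (SE, adjusted p 0.233). Fgfr1 is widely expressed, so its counts are not specific to the tubule.

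The scaffolds showed no separation of the groups. Pdzk1 (ENSMUSG00000038298) was measured at 604, 545 and 403 CPM in DKD replicates 1 to 3 and at 551, 587 and 1228 CPM in Control replicates 1 to 3. The groups overlapped, and Control replicate 3 was 2.16 times the mean of the other two Control libraries. The log2 fold change was −0.61 ± 0.34 (SE, adjusted p 0.334), and −0.14 (adjusted p 0.702) without Control replicate 3. Slc9a3r1 (ENSMUSG00000020733) was at 327, 243 and 235 CPM in DKD and at 268, 276 and 400 CPM in Control, with a log2 fold change of −0.23 ± 0.21 (SE, adjusted p 0.569) and −0.021 (adjusted p 0.959) without Control replicate 3. Exons of Gpr89 cover 37.5% of the exonic bases of Pdzk1 on the opposite strand, and those of Pfn3 cover 11.7% of Slc34a1. Whether counting used the strand is not stated. Gpr89 was at 163, 103 and 112 CPM in DKD and at 123, 113 and 161 CPM in Control, and Pfn3 had 0 counts in all 6 libraries.

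**Figure D2:**
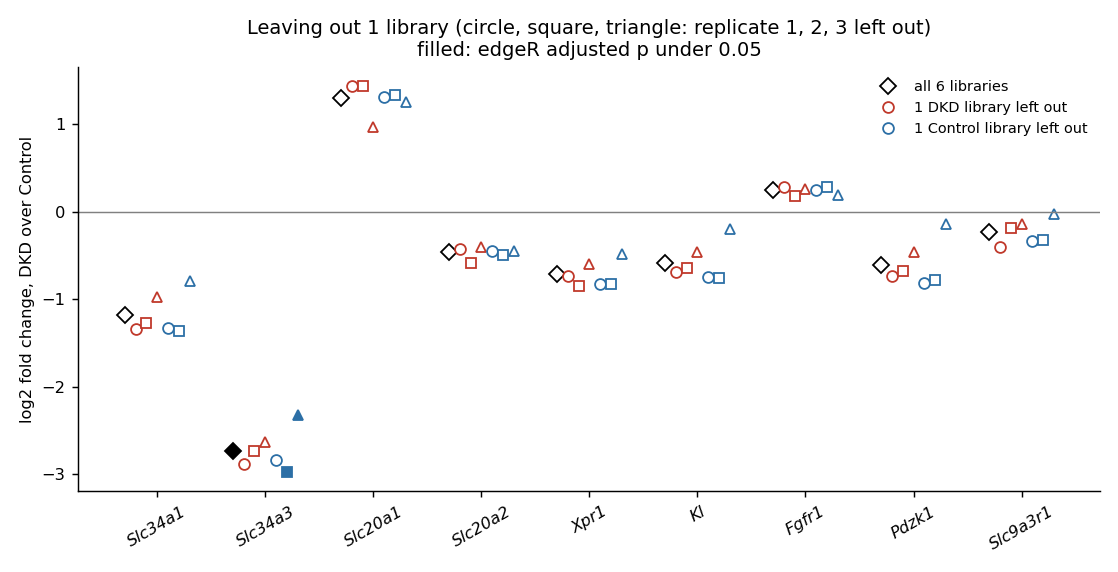
Log2 fold change of DKD over Control (vertical axis) for each of the 9 genes with all 6 libraries (diamonds) and with 1 library left out (red, a DKD library; blue, a Control library; circle, square and triangle for replicates 1, 2 and 3); filled symbols have an edgeR adjusted p under 0.05. Leaving out Control replicate 3 moves Slc34a1, Slc34a3, Xpr1, Kl, Pdzk1 and Slc9a3r1 toward 0 and leaves Slc20a1, Slc20a2 and Fgfr1 nearly in place.

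Set side by side per length, the genes covered a wide range of levels. Means are given in CPM per kilobase of the longest principal transcript in the annotation (SD, n = 3 each). Slc34a1 had the highest level in both groups, at 499 ± 136 in DKD and 1129 ± 466 in Control. Pdzk1 followed at 191 ± 38.1 in DKD and 291 ± 141 in Control. Slc9a3r1 had 139 ± 26.6 in DKD and 164 ± 38.5 in Control, and Kl had 96.5 ± 15.4 in DKD and 145 ± 59.0 in Control. In Control, Slc9a3r1 and Kl lay within their spread of each other. Pdzk1 lay above both of them per kilobase in every library, and Control replicate 3 widened its SD. The remaining 5 genes lay lower in both groups. Slc20a1 had 32.4 ± 11.6 in DKD and 13.1 ± 0.679 in Control, and Fgfr1 had 14.7 ± 0.959 in DKD and 12.4 ± 0.862 in Control. Slc20a2 had 11.7 ± 1.45 in DKD and 16.1 ± 0.688 in Control, and Xpr1 had 7.64 ± 1.24 in DKD and 12.5 ± 3.30 in Control. Slc34a3 had the lowest level in DKD, 2.48 ± 0.425, while in Control it had 16.6 ± 7.38 and lay within its spread of Slc20a2, Slc20a1, Xpr1 and Fgfr1. In DKD, Slc20a1 stood above those neighbours in the order and Slc34a3 below them, each by more than the SD of the means.

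Most proximal tubule markers had lower values in DKD as well. Of 34 listed markers, none of them a gene described above, 30 were lower and 4 higher. Of all 19717 genes tested, 9810 were lower and 9907 higher. The markers' median log2 fold change was −0.67, against 0.003 over all genes. By edgeR's test over all genes 4 of them fell (adjusted p from 0.0192 to 0.0445) and 0 rose. Over all genes tested 0.431% were called lower and 0.725% higher. Those that fell were Slc5a12 (log2 fold change −2.56), which carries lactate, Slc5a2 (−1.82), which carries glucose, and Slc6a19 (−1.68) and Slc7a8 (−1.12), which carry amino acids. The 4 higher markers were Pck1 (2.21, adjusted p 0.0573), Slc13a1 (0.90, adjusted p 0.0898), Napsa (0.40, adjusted p 0.42) and Keg1 (0.38, adjusted p 0.59). For Pck1 and Slc13a1 every DKD library lay above every Control library. The summed share of counts of the 34 markers was 3.43% ± 0.573 in DKD and 4.82% ± 1.35 in Control (SD, n = 3 each). The exact permutation p was 0.2, two-sided, where 0.1 is the smallest that 3 against 3 allows. That difference of −1.39 percentage points was −0.62 without Control replicate 3 (exact permutation p = 0.4) and −0.86 without the single abundant marker Kap (exact permutation p = 0.1). All 34 passed the low-count filter. Their mean log2 CPM was 9.02, 8.92 and 8.54 in DKD replicates 1 to 3 and 9.21, 9.23 and 9.94 in Control replicates 1 to 3. Markers of the distal convoluted and connecting tubule, where Kl is also made, held 0.276% ± 0.0381 of counts in DKD and 0.339% ± 0.0737 in Control (exact permutation p = 0.3, two-sided, n = 3 each). By gene, however, 6 of those 10 markers were higher and 4 lower in DKD, with a median log2 fold change of 0.14, so the sum and the median differ in sign. Of the markers of the thick ascending limb and collecting duct 6 were higher and 8 lower (median −0.16, none past the threshold). Of the leukocyte markers 9 of 12 were higher (median 0.45, none past it). Markers of the glomerulus, like those of the proximal tubule, mostly had lower values. These were 18 of 20 for the podocyte (median −0.51, none past the threshold), 11 of 15 for glomerular endothelium (median −0.40, none past it) and 10 of 14 for mesangium and smooth muscle (median −0.25). Of the last list the angiotensin receptor Agtr1a fell (−1.07 ± 0.16, SE, adjusted p 0.0360), a gene named after its values were seen. With the markers' mean log2 CPM as a covariate in edgeR the log2 fold change was −1.88 for Slc34a3 (adjusted p 0.0420) and −0.24 for Slc34a1 (adjusted p 0.511), but the groups do not overlap on that mean, so tubule content and group cannot be told apart. Of the 34 markers 0 had a lower log2 fold change than Slc34a3 and 7 had a lower one than Slc34a1, while 33 lay below Slc20a1 and 30 below Fgfr1.

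**Figure D3:**
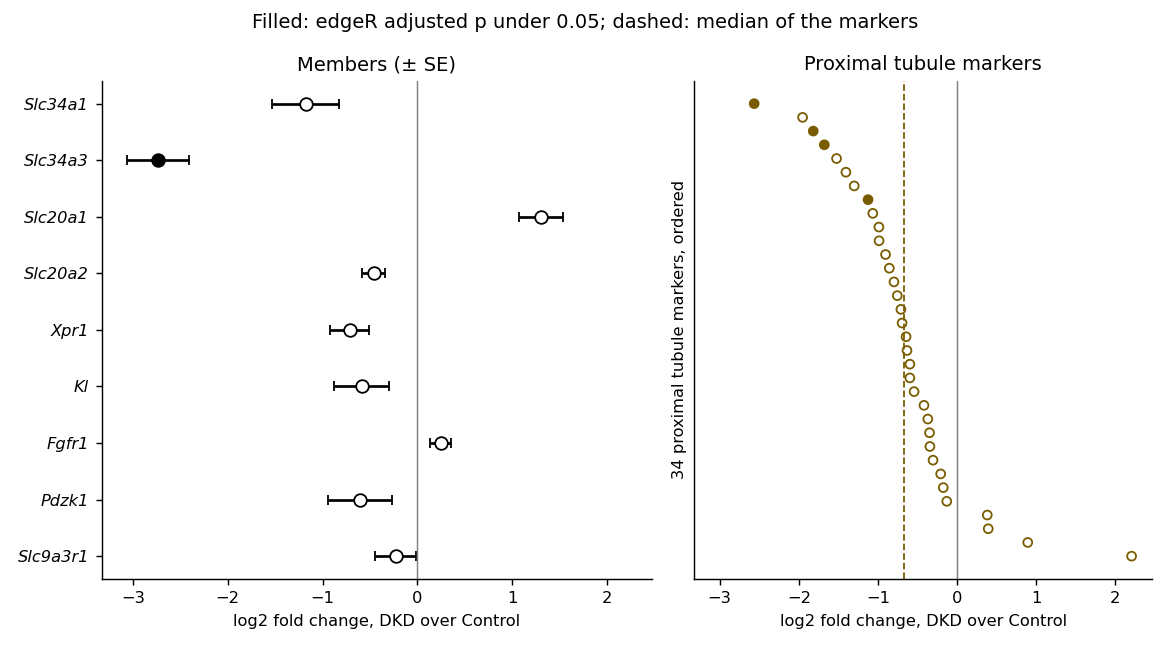
Log2 fold change of DKD over Control (horizontal axes) for the 9 genes with ± SE (left) and for 34 proximal tubule markers in order (right); filled symbols have an edgeR adjusted p under 0.05 and the dashed line is the markers' median, −0.67. Slc34a3 at −2.74 lies below all 34 markers, whereas Xpr1, Kl, Pdzk1 and Slc20a2 lie between −0.72 and −0.46.

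Within a library, each gene was set against the mean log2 CPM of those 34 markers. Slc34a3 relative to the markers was at −6.33, −6.53 and −6.32 (log2) in DKD and at −4.25, −4.69 and −4.17 in Control, a difference of −2.02. Slc34a1 was at 2.22, 2.17 and 1.88 in DKD and at 2.58, 2.46 and 2.76 in Control, a difference of −0.51. Both type II cotransporters were thus lower in all DKD libraries also on this scale. Slc20a1 was higher by 1.88, Fgfr1 by 0.88 and Slc9a3r1 by 0.41, and for these 3 every DKD library lay above every Control library. The marker mean was itself lower in every DKD library (difference −0.63). Slc20a1 and Fgfr1 were higher in every DKD library before it was subtracted, so their separation on this scale was fixed beforehand. Before subtraction the log2 fold change was 0.24 for Fgfr1 and −0.23, with overlapping groups, for Slc9a3r1. Without Control replicate 3 the Fgfr1 difference was 0.58, and against the median of the markers the Slc9a3r1 difference was 0.23. The groups overlapped for Kl (difference 0.10), Pdzk1 (0.11), Slc20a2 (0.16) and Xpr1 (−0.066); against the median of the markers all 4 lay below 0 (−0.077, −0.076, −0.018 and, for Xpr1, −0.25 with an exact permutation p = 0.1). For Kl and Pdzk1 the overlap came from Control replicate 3 alone. Without it the differences were 0.18 for Kl and 0.24 for Pdzk1, and −0.061 for Slc20a2; the first 2 had an exact permutation p = 0.2, the smallest that 3 against 2 allows. Each of the 5 genes without overlap had an exact permutation p = 0.1, two-sided with n = 3 each, the smallest this design allows, and 0.18 adjusted over the 9 genes, so none passes a threshold of 0.05. The other 4 had an exact permutation p between 0.4 and 0.7 with all libraries and the mean of the markers.

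**Figure D4:**
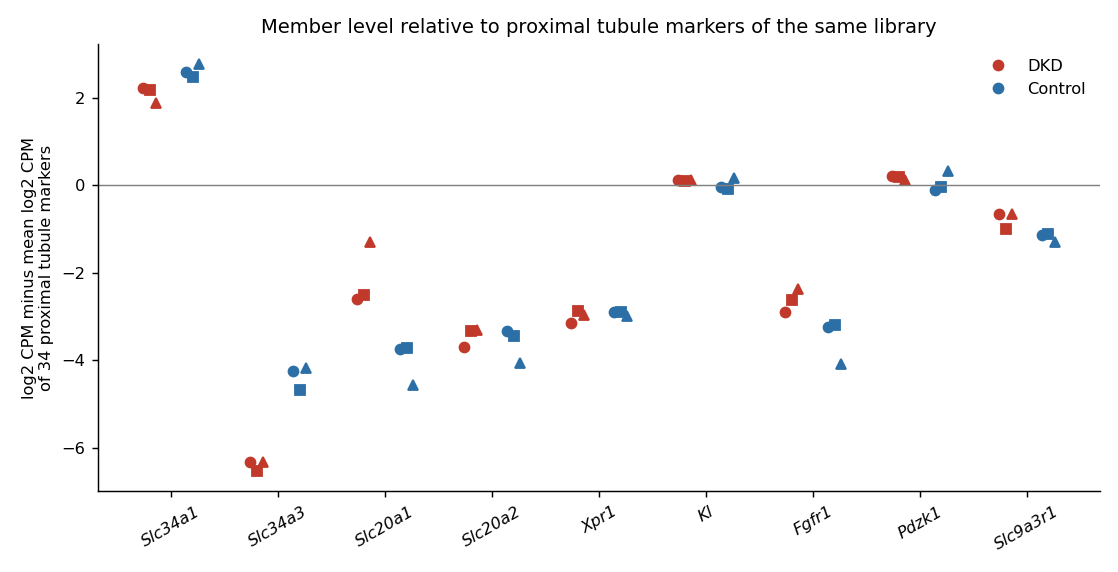
Log2 CPM of each gene minus the mean log2 CPM of 34 proximal tubule markers in the same library (vertical axis), DKD in red to the left of Control in blue; circle, square and triangle are replicates 1, 2 and 3. The DKD libraries lie below all Control libraries for Slc34a1 and Slc34a3 and above them for Slc20a1, Fgfr1 and Slc9a3r1.

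Ratios between these genes within a library were compared after their values were seen. Slc34a3 relative to Slc34a1 was at −8.54, −8.70 and −8.21 (log2 of the CPM ratio) in DKD and at −6.83, −7.15 and −6.93 in Control. The type IIc transcript was therefore lower by 1.51 relative to the type IIa transcript, with no overlap, and the difference was −1.49 without Control replicate 3. Slc20a1 relative to Slc20a2 was at 1.11, 0.83 and 2.00 in DKD and at −0.42, −0.27 and −0.51 in Control. Slc20a1 thus had more counts than Slc20a2 in every DKD library and fewer in every Control library. Kl relative to Slc34a1 was at −2.11, −2.08 and −1.76 in DKD and at −2.62, −2.56 and −2.61 in Control, so Control replicate 3 did not stand apart on this ratio. Pdzk1 relative to Slc34a1 differed by 0.62 in the same direction as Kl, which differed by 0.62 too. All 5 ratios computed, Slc20a1 relative to Slc34a1 among them, had an exact permutation p = 0.1 (two-sided, n = 3 each), also after adjustment over the 5. The pairs were picked after the values were seen, so these p-values do not serve as tests. For Slc20a1 relative to Slc20a2 or to Slc34a1 the separation was fixed beforehand. Both genes of each pair already separated the groups, in opposite directions.

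The genes with the most similar pattern over the 6 libraries were sought among 11018 genes, by the root mean square difference of log2 CPM centred on each gene's mean. For Slc34a3 these were Cpne4 (0.14), Slc5a12 (0.19), Fam151a (0.26) and Hmcn2 (0.29). For Slc34a1 they were Tmem26 (0.10), Reps2 (0.11), the endocytic receptor Lrp2 (0.11), Glyctk (0.12) and Gas2 (0.12). For Kl they were the parathyroid hormone receptor Pth1r (0.037), Tmem254b (0.050), Kcnj15 (0.055), Ccdc6 (0.058) and Arhgap10 (0.063). Tmem254b has close copies and its counts are uncertain. These values are a description.

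Pth1r was measured at 425, 379 and 319 CPM in DKD replicates 1 to 3 and at 446, 415 and 801 CPM in Control replicates 1 to 3. Like Kl it was highest in Control replicate 3. Its groups overlapped, whereas those of Kl nearly did. The log2 fold change of Pth1r was −0.57 ± 0.27 (SE, adjusted p 0.271).

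Of 65 other listed genes of phosphate handling, 60 were tested and 1 was called, higher in DKD. Over all genes tested 1.16% were called (0.725% higher). Before adjustment p in edgeR's test was under 0.05 for 24 of the 60 (40.0%, against 22.6% of all genes). The lists were chosen with earlier results of these data known, so these shares are a description. The median log2 fold change of the 60 genes was −0.041. The 5 not tested were Fgf23, Pth and Mepe with 0 counts in every library, Dmp1 with at most 5 and Phex with at most 15. The gene that rose was Stc1, in the list of mineralization and phosphatonin genes (3 higher, 4 lower), which encodes stanniocalcin 1, a secreted hormone described in rats as raising renal phosphate reabsorption. Stc1 was measured at 27.8, 19.5 and 21.6 CPM in DKD replicates 1 to 3 and at 6.13, 6.93 and 3.53 CPM in Control replicates 1 to 3. All DKD libraries lay well above all Control libraries, with a log2 fold change of 2.05 ± 0.28 (SE, adjusted p 0.0298). Without 1 library it passed only without DKD replicate 2 or Control replicate 3.

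The other lists held no gene past the threshold, and the gene with the smallest p in each is given as a value. Among other phosphate carriers (4 higher, 3 lower) Slc17a4 had a log2 fold change of −1.26 ± 0.33 (SE, adjusted p 0.0942). Among brush border partners (4 higher, 4 lower) Shank2, a PDZ-domain scaffold, had −0.93 ± 0.18 (adjusted p 0.0573), with 19.9 ± 4.22 CPM in DKD and 38.0 ± 4.94 CPM in Control (SD, n = 3 each). In the FGF23 and FGF receptor list (3 higher, 9 lower) the adaptor Frs2 had −0.46 ± 0.14 (adjusted p 0.127). In the parathyroid hormone list (1 higher, 5 lower) the kinase Prkca had −0.60 ± 0.13 (adjusted p 0.0633). In the vitamin D list (3 higher, 4 lower) Rxra, the partner of the vitamin D receptor, had −0.39 ± 0.13 (adjusted p 0.138). In the inositol pyrophosphate list (3 higher, 3 lower), whose products bind Xpr1, the kinase Ppip5k2 had −0.57 ± 0.12 (adjusted p 0.0640). In the distal calcium list (5 higher, 2 lower) the calcium channel Trpv6 had 1.28 ± 0.27 (adjusted p 0.0640), with 4.29, 3.45 and 5.85 CPM in DKD and 1.90, 1.93 and 1.76 CPM in Control.

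**Figure D5:**
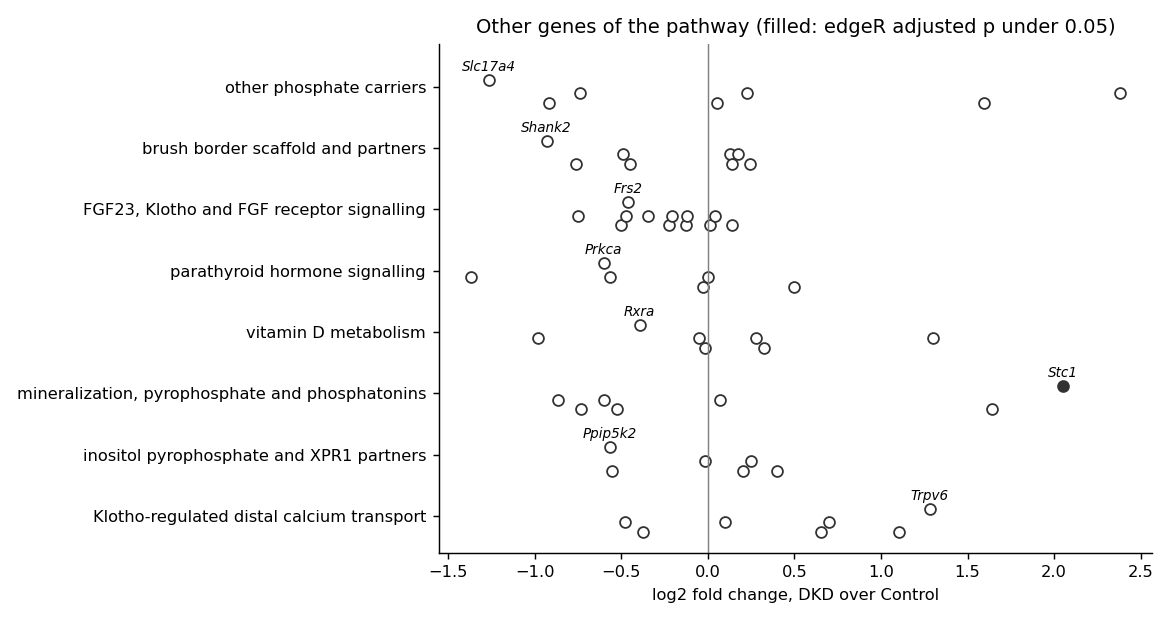
Log2 fold change of DKD over Control (horizontal axis) for the 60 tested genes of the 8 other lists of phosphate handling, each list on its own line; the filled symbol has an edgeR adjusted p under 0.05, and labels name the genes given in the text. Stc1 at 2.05 is the single filled symbol.

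The enzymes that set active vitamin D did not pass. Cyp24a1, which degrades it, was measured at 202, 65.1 and 150 CPM in DKD and at 302, 361 and 162 CPM in Control, with overlapping groups and a log2 fold change of −0.98 ± 0.44 (SE, adjusted p 0.242). Cyp27b1, which makes it, was at 3.72, 1.95 and 3.59 CPM in DKD and at 1.82, 1.32 and 4.27 CPM in Control, also with overlap (0.32 ± 0.49, adjusted p 0.740). The other FGF receptors Fgfr2 (−0.47 ± 0.32), Fgfr3 (−0.20 ± 0.11) and Fgfr4 (−0.35 ± 0.23) did not pass, with adjusted p of 0.434, 0.310 and 0.413. Fgfr2 was at 18.5, 17.4 and 19.4 CPM in DKD and at 28.2, 35.5 and 13.1 CPM in Control. It passed without Control replicate 3, its lowest library, in a fit that called 1.88% of all genes, and in no other fit. These 5 genes were named after their values were seen.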

How the data were processed

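The deposited table held raw counts per Ensembl gene from polyadenylated RNA, made by the authors without normalization and with no column left unused. The submitters' processing notes name build GRCm39 and fastp, HISAT2, StringTie and edgeR, with no version, annotation release or strand setting. Per the labels' protocols, libraries were stranded (dUTP). Symbols and transcript lengths came from GENCODE vM21 on the earlier build GRCm38 (55141 identifiers matched, 260 did not).

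Groups were taken from the labels. Genes were kept by filterByExpr (minimum count 10), scaled with TMM and tested with edgeR 4.0.16 (quasi-likelihood, group only, Benjamini-Hochberg adjusted p) in R 4.3.3; the biological coefficient of variation was 33.2%. SE is the log2 fold change divided by the root of F. Log CPM used a prior count of 2. Single values were compared with two-sided exact permutation tests. In simulated data (3 libraries per group, 19164 genes) the test recovered 28 of 100 genes at a true log2 fold of 1, 61 of 100 at 2, and called 8 unchanged genes among 97 calls. Simulated counts varied independently, with no library set apart as Control replicate 3 was, so these rates may not hold for the real libraries. Genes and lists were chosen with earlier results of these data known. Named were all 9 genes, pathway genes past the threshold or with the smallest p in a list (mean of at least 1 CPM), proximal tubule markers past it, and the 5 genes most alike (mean of at least 5 CPM, predicted models left out) for Slc34a3, Slc34a1 and Kl, of which 1 is not reported here.

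Alternatives were other scalings, filters, DESeq2 1.42.0, limma-voom (limma 3.58.1), robust dispersion, the replicate block, a tubule covariate, no mitochondrial genes, a length trend removed (5 degrees of freedom), and each library left out.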

Additional observations from a re-analysis of the deposited data

How the results depend on the processing

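Over 18 alternatives Slc34a3 passed in 13, with log2 fold changes from −2.98 to −1.88. Slc20a1 passed in 2 (0.86 to 1.44), and Slc34a1, Slc20a2 and Xpr1 passed in 1, DESeq2; the other 4 of the 9 genes passed in none. The counts given here are of the 9 genes called, then of other phosphate genes called, then of all genes called. They were 1, 1 and 228 as reported; 5, 14 and 2483 (13.7% of genes) with DESeq2; 2, 2 and 516 with a filter of 1 CPM in 3 libraries; 1, 0 and 56 with no filter; and 1, 0 and 85 with the proximal tubule score as covariate. With that covariate, on which the groups do not overlap so that tubule content and group cannot be told apart, Kl, Pdzk1 and Slc9a3r1 turned to 0.24, 0.40 and 0.28. With library totals the median of all genes was −0.13. Leaving out 1 library gave 0 to 1 of the 9 genes, 0 to 2 other phosphate genes and 1 (without Control replicate 1) to 386 (without Control replicate 3) of all genes; it gave 4, 298 and 10 without DKD replicates 1, 2 and 3 and 13 without Control replicate 2. The replicate block called 0, 0 and 0, with an adjusted p of 0.143 for Slc34a3. Same-numbered libraries had correlations of deviations of −0.183, 0.0663 and −0.224, and differently numbered ones from −0.204 to 0.268. With 3 libraries per group these values cannot decide whether the numbers pair the libraries.

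Relative to the median in place of the mean of the tubule markers, Slc20a2, Kl and Pdzk1 turned to −0.018, −0.077 and −0.076, Xpr1 moved to −0.25 (exact permutation p 0.1, against 0.7) and Slc9a3r1 to 0.23. Slc20a2 relative to the mean ran from −0.061 to 0.31 with 1 library left out and was −0.061 without Control replicate 3, and Xpr1 ran from −0.13 to 0.0087 and was 0.0087 without DKD replicate 1. The causes were not tested.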
